A study of Mus musculus with 8 samples.

Results

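Interferon-stimulated genes were followed across the cells of the newborn mouse lung. The list held 35 genes, all known targets of interferon. They were listed by name and no measured value was the rule for membership, though earlier results of these data were known. Of these, 33 had a row of that symbol among the 32285 genes of the count table, and Mx1 and Mx2 were not analysed here. The cells came from lungs of wild-type C57BL6/J pups aged 5 days, frozen, later thawed, and sorted by flow cytometry into endothelium, epithelium and immune cells. All pups, those of the air group included, had been exposed before birth to LPS (lipopolysaccharide, a bacterial cell wall component) at day 14 of gestation. From birth they breathed 21% oxygen (Air, 4 libraries, labelled healthy) or 65% oxygen (Hyperoxia, 4 libraries, labelled BPD, bronchopulmonary dysplasia, in which the lungs of infants born early stop forming alveoli normally). Per its title, the series is about type 2 immunity in this condition.

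The table pooled 11806 cells, and 0 of the 8 libraries could be tied to its columns by name. Air and Hyperoxia were therefore not compared, the pool counted as 1 sample, and no test was possible. What could be compared was cell groups, set by counts of unique molecular identifiers (UMIs, 1 per captured RNA molecule) of a few gate genes, none of them on the list. The gates were Sftpc for alveolar type 2 epithelium (AT2), Rtkn2 for alveolar type 1 epithelium (AT1), Cdh5 and Cldn5 for endothelium, Ear1 and Marco for alveolar macrophages, C1qa and C1qb for interstitial macrophages, F13a1 with Ly6c2 for classical monocytes, Ace and Adgre4 for nonclassical monocytes, S100a8 and S100a9 with Csf3r for neutrophils, Cd3e and Trac for T cells, and Dppa5a for a group of cells with a transcript of pluripotent cells. A cell took the first gate it passed in that order, and 4872 cells (41.3%) passed none. The columns fell into 8 stretches of ordered barcodes, called runs, and values are given by run as a range, since a run is not known to be a library.

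Interferons are secreted alarm proteins that bind receptors on neighbouring cells. Type I and type III interferons act through the kinases Jak1 and Tyk2 on a complex that holds Stat2 and Irf9 and binds the interferon-stimulated response element (ISRE) near target genes, whereas interferon gamma acts mainly at the GAS element. The targets code for proteins that sense, bind or degrade viral RNA and DNA, hinder viral entry and budding, and feed back on the signal, and in the lung they form a front line against respiratory viruses.

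The response element was looked for in the RefSeq promoter table of build GRCm38.p6, which gives 250 bases before to 50 after each start site. An entry was found for 26 of the 33 members. Its core was searched as GAAA, any 2 bases and a second GAAA, on either strand. It was present for 14 of the 26, against 3.99% of all 27025 genes of the table, and the longer form, in which CT follows, for 8 of the 26 against 0.303%. The longer form contains the core. The GAS core TTCNNNGAA, on either strand, was present for 6 of 26 against 9.55% of genes. The members with the ISRE core were Bst2, Ddx60, Ifi203, Ifih1, Ifit1, Ifit3, Ifit3b, Ifitm3, Isg15, Oas1a, Oas3, Rsad2, Stat2 and Trim30a. Their 24 matches lay before the start site in 20 cases, at a median of -73.5 bases over all 24, and at -222 in the farthest case. A match describes these letters only, and its absence from this window says nothing about the factor.

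The Isg15 and Rsad2 promoters are shown because these genes were more often detected in cells with many members at once, described further on. Most such cells held no UMI of either gene at the depth used there, and the 2 were picked with their values known. Each is the 250 bases before the start site, with the ISRE cores in capitals. For Isg15 (chr4:156200819-156201068, minus strand) the capitals hold 3 overlapping matches, and for Rsad2 (chr12:26456453-26456702, minus strand) 1 match, which lies on the opposite strand and so reads as its reverse complement, as do those of Ifit1 and Ifit3.
Isg15: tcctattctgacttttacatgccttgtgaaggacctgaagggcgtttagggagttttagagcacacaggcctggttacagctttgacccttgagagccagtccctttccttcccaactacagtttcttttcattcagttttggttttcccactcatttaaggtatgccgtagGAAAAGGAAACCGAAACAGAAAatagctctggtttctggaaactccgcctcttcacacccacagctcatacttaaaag
Rsad2: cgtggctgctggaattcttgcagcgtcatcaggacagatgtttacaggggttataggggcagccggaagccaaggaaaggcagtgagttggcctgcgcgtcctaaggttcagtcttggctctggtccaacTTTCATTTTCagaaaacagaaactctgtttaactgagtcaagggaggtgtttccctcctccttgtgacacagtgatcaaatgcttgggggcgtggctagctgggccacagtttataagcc
The Ifit genes, neighbours on chromosome 19, and 3 members of other roles are shown by the 50 bases around a match, again with the core in capitals, so that the spacing and the flanks can be compared. They are Ifit1 (chr19:34640765-34640814), the first and the second match of Ifit3 (chr19:34583353-34583402 and chr19:34583387-34583436), Ddx60 (chr8:61928014-61928063), all on the plus strand, and Bst2 (chr8:71537573-71537622) and Oas3 (chr5:120777705-120777754), on the minus strand.
Ifit1: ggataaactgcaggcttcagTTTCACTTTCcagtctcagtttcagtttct
Ifit3 first: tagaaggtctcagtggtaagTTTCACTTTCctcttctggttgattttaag
Ifit3 second: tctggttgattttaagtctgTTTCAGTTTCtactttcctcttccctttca
Ddx60: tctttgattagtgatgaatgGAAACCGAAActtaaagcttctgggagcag
Bst2: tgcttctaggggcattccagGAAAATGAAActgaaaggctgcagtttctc
Oas3: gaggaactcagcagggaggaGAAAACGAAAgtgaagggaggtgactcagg
Both windows of Ifit3 recur letter for letter at Ifit3b (chr19:34607749-34607798 and chr19:34607783-34607832), a near copy of Ifit3, so reads of this pair may have been shared or dropped in the counting and their values are uncertain. The window of Ifit1 holds a second core, left in lower case. That of Bst2 holds a second core that overlaps the first, beginning within the capitals and ending in lower case.

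Cells held a median of 4425 UMIs. The gate groups held between 118 cells (AT1) and 2243 cells (nonclassical monocytes), with medians from 2724 UMIs in endothelium to 11446 in Dppa5a-high cells. Markers not used by the gates were highest in their own group for all 5 of 5 genes in 8 groups and for 4 of 5 in classical monocytes and interstitial macrophages. Groups were mixed to different degrees: interstitial macrophages held 1539 CPM (UMIs per 1000000 UMIs of a group) of summed classical monocyte markers beside 1619 of their own, and nonclassical monocytes 744 beside 2418. AT1 cells held 228 CPM of T cell markers and 192 of Dppa5a-type markers beside 7024 of their own. The part of this mixing in the levels given here was not tested. Of all cells, 592 passed more than 1 gate, among them 199 of the 601 endothelial and 166 of the 548 classical monocyte cells. No doublet caller was used, 31 cells shared 12 barcodes between runs, and RNA free in the suspension was not subtracted. All intervals are exact 95% intervals, cover counting error only, and do not describe the spread between animals; where a count is 0, the limit given is instead 3 counts of the total. Each UMI is counted once at the transcript's end, so CPM is not scaled by gene length.

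The list was expressed most in monocytes. Its 33 genes together made up 5485 CPM in classical monocytes (5419 to 5552) and 4187 in nonclassical monocytes (4151 to 4224). Endothelium held 1701, interstitial macrophages 1629.7, neutrophils 1621, T cells 916, AT1 cells 722, Dppa5a-high cells 680.1, alveolar macrophages 449 and AT2 cells 277. Cells outside all gates held 1547. Both monocyte groups thus stood well above every other group, and AT2 cells and alveolar macrophages stood lowest. Most of the sum came from 3 genes, Ifitm3, Ifi27l2a and Bst2, which made up 74.9% of it in classical monocytes.

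Without those 3 genes the order at the top was the same. The other 30 members summed to 1378 CPM in classical monocytes (1089.9 to 2108 over 8 runs) and 969.8 in nonclassical monocytes (692 to 1537 over 8 runs). Interstitial macrophages followed with 727, neutrophils with 699, endothelium with 629, T cells with 544, AT1 cells with 437, alveolar macrophages with 231, Dppa5a-high cells with 149 and AT2 cells with 148. Within runs, classical monocytes were first in 8 of 8, and the lowest group was AT2 or Dppa5a-high cells. Nonclassical monocytes were not second in every run. In run 3 endothelium (786 CPM) and interstitial macrophages (702) stood above them (692). In run 6 interstitial macrophages did (1150 against 1097). The ranges of the monocyte groups overlapped across runs, so that their order rests on the comparison within each run. AT2 and Dppa5a-high cells were nearly equal, with overlapping intervals (138 to 159 and 138 to 162).

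**Figure D1:**
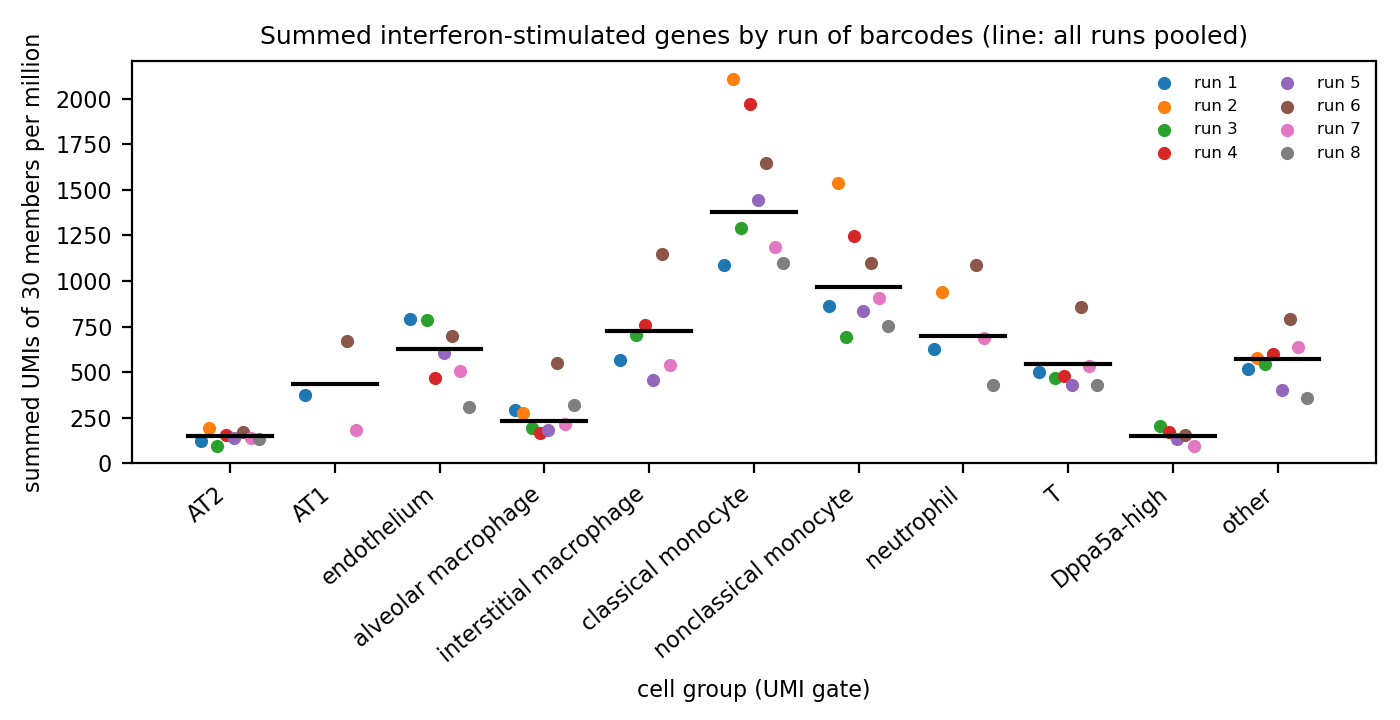
Summed UMIs of the 30 members other than Ifitm3, Ifi27l2a and Bst2, in CPM (vertical axis), for each gate group (horizontal axis). Points are runs with at least 10 cells of the group and black lines are all runs pooled: the classical monocyte line lies at 1378 CPM, and lines for AT2 and Dppa5a-high cells lie at 148 and 149 CPM.

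Counted gene by gene, 16 of the 33 members had their highest level in classical monocytes, 6 in endothelium, 6 in neutrophils, 3 in AT1 cells, and 1 each in T cells (Ifi47) and interstitial macrophages (Rsad2). The share of all genes led by a group is given below for classical monocytes only. The counts for the other groups therefore cannot be read as particular to the list. For 18 of the 33 the counting intervals of the first and second group overlapped. A level of at least 20 CPM in the leading group was reached by 26 members and by 10751 genes in all. A gene can reach it through the counted group alone. Cmpk2 and Oas3 did so in classical monocytes, with 14.9 and 19.8 CPM in their second groups. Of these 26, 15 were led by classical monocytes, against 3.53% of all such genes, and 23 led by 2-fold or more over the remaining cells, against 65.2% of genes, so that a 2-fold lead as such was common. At least 2-fold higher in classical monocytes than in all other cells were 17 of the 26, against 2.25% of genes. With no minimum level the count was 20 of the 33, for which no share of all genes is given. In nonclassical monocytes 10 of 26 were 2-fold higher, against 4.93%, and in neutrophils 7 of 26, against 5.74%. The counts elsewhere were 4 of 26 in endothelium (19.1% of genes), 3 in AT1 cells (24.9%), 2 in T cells (9.40%), 1 in interstitial macrophages (2.27%), and 0 in AT2 cells (15.6%), alveolar macrophages (4.51%) and Dppa5a-high cells (23.3%).

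Low levels were shared by many members too. At least 2-fold lower than in all other cells were 22 of 26 members in Dppa5a-high cells (31.8% of genes), 21 in AT2 cells (29.8%) and 18 in alveolar macrophages (27.0%). Over the 30 members other than Ifitm3, Ifi27l2a and Bst2, the median log2 difference from all other cells was 1.13 in classical monocytes, beside -0.33 over all 10751 genes, and 0.76 in nonclassical monocytes, beside -0.31. It was -2.33 in Dppa5a-high cells, -2.11 in alveolar macrophages and -1.84 in AT2 cells, beside -0.11, -0.20 and -0.34. In alveolar macrophages 0 of the 30 exceeded the level in all other cells, although these cells had a median of 7507 UMIs.

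**Figure D2:**
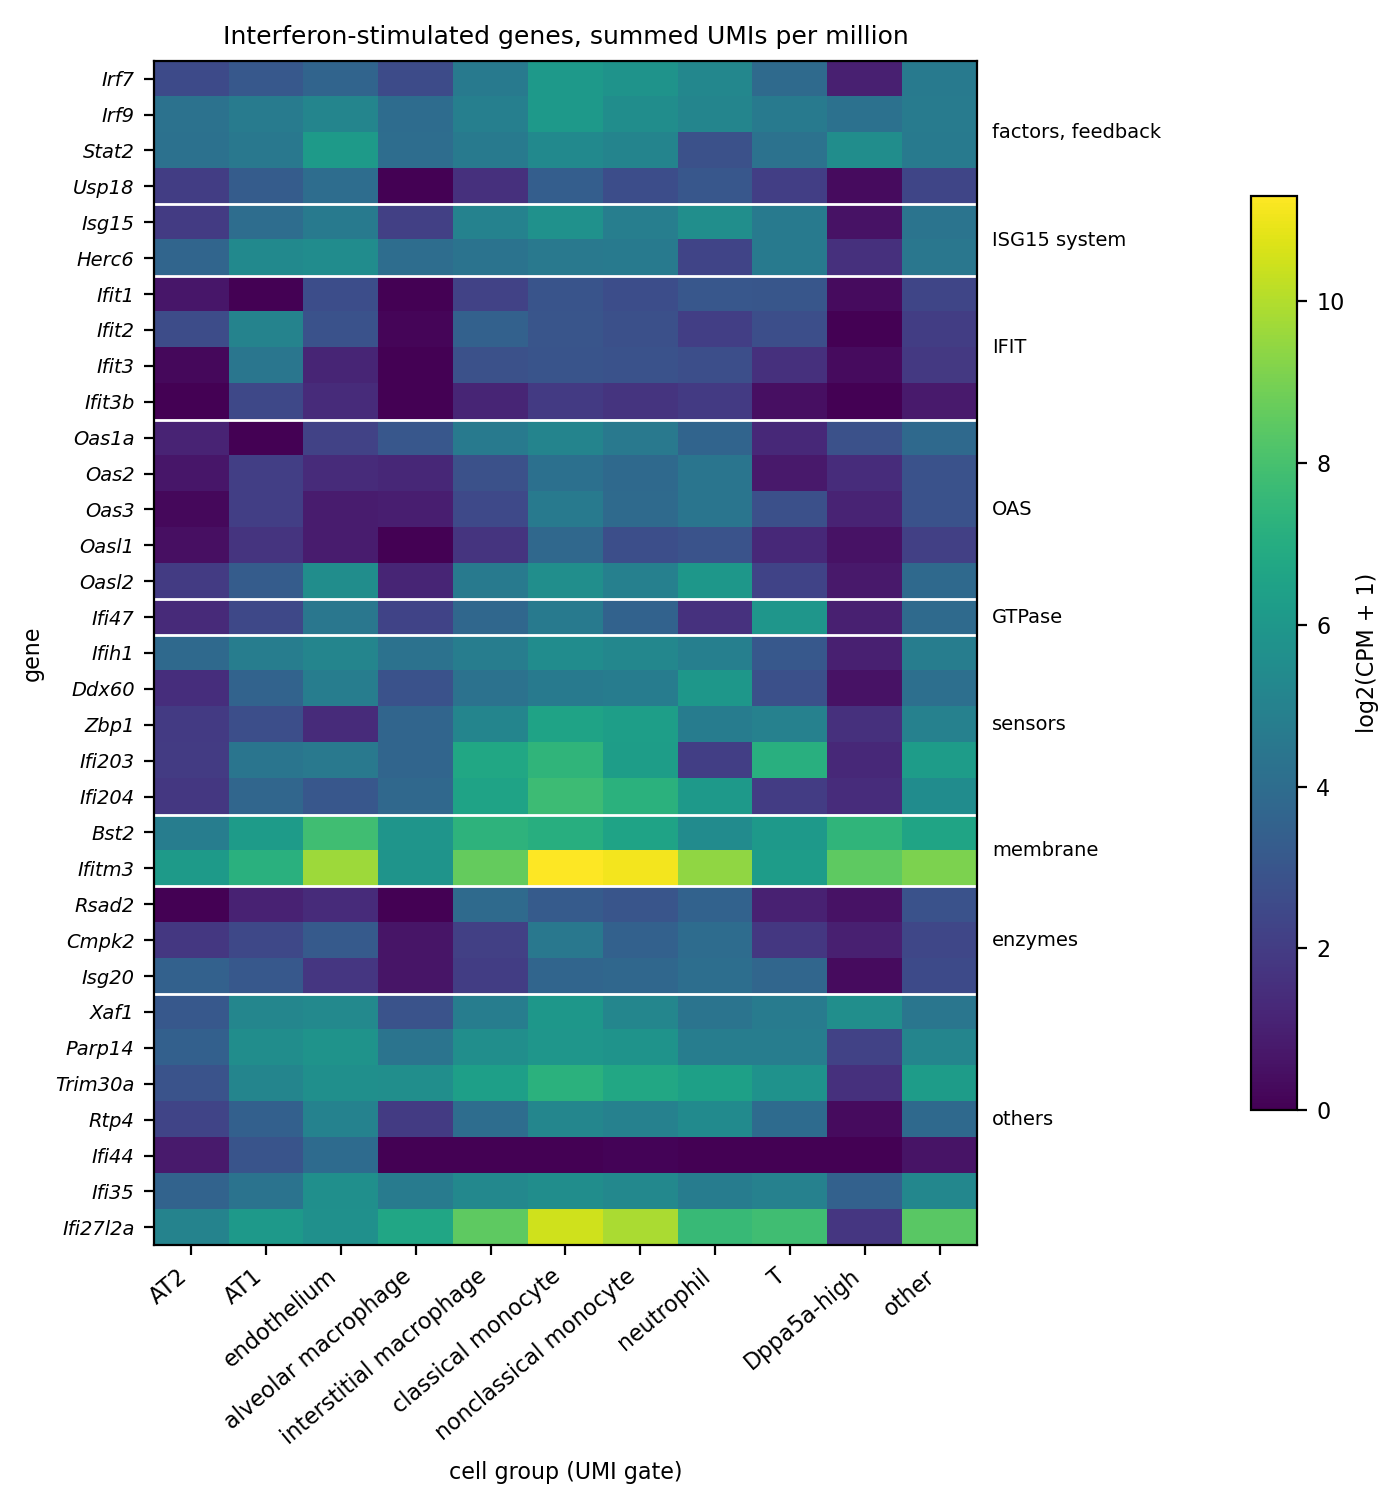
Levels of the 33 members (rows, grouped by role) in the 10 gate groups and in cells outside all gates (columns), as log2(CPM + 1) by colour. The classical and nonclassical monocyte columns are brightest, Ifitm3 and Ifi27l2a stand out as rows, and the alveolar macrophage and Dppa5a-high columns are dark for most rows.

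The members are taken by role, starting with transcription factors and feedback. Irf7, the factor that amplifies interferon production (chr7:141262706-141266481), had 68.1 CPM in classical monocytes (60.8 to 75.9; 44.0 to 191 over 8 runs). It had 55.1 in nonclassical monocytes, 36.3 in neutrophils, 24.4 in interstitial macrophages, 24.3 in cells outside all gates, 14.2 in T cells, 11.5 in endothelium, 7.70 in AT1 cells, 4.99 in alveolar macrophages, 4.90 in AT2 cells and 0.968 in Dppa5a-high cells. Classical monocytes thus lay above nonclassical monocytes without overlap of the intervals, both lay above the rest, and the fold over all other cells was 2.90-fold (2.57 to 3.27). Stat2, a subunit of the complex that binds the ISRE (chr10:128270559-128292849), had another pattern, with 71.3 CPM in endothelium (61.0 to 82.7; 0 to 96.8 over 7 runs). It had 45.7 in Dppa5a-high cells, 39.9 in classical monocytes, 32.8 in nonclassical monocytes, 23.9 in cells outside all gates, 23.7 in interstitial macrophages, 22.0 in AT1 cells, 18.2 in T cells, 17.6 in AT2 cells, 15.5 in alveolar macrophages and 6.05 in neutrophils. The Dppa5a-high level of Stat2 was uneven, with 42 of its 189 UMIs in 1 cell and 7.40 to 74.9 CPM over 5 runs. Neutrophils, which were among the higher groups for most OAS genes, had the lowest Stat2 level. Irf9, the DNA-binding subunit of that complex, led in classical monocytes with 67.4 CPM (60.2 to 75.2) and was lowest in alveolar macrophages with 14.7. Usp18, which removes Isg15 from proteins and damps the type I receptor, stayed low, with 15.2 CPM in endothelium (10.7 to 21.0), 9.45 in classical monocytes (6.89 to 12.6) and 0 UMIs in alveolar macrophages, which allows up to 0.348 CPM. Its lead passed to AT1 cells without run 6.

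The next role is that of Isg15 and its ligase. Isg15, the ubiquitin-like protein joined to other proteins during the response (chr4:156199424-156200818), had 51.2 CPM in classical monocytes (45.0 to 58.1; 12.6 to 76.2 over 8 runs). In neutrophils it had 46.4 (38.3 to 55.7), and it had 31.1 in interstitial macrophages, 27.1 in nonclassical monocytes, 23.5 in endothelium, 23.4 in T cells, 19.4 in cells outside all gates, 15.4 in AT1 cells, 3.36 in alveolar macrophages, 2.94 in AT2 cells and 0.484 in Dppa5a-high cells. The intervals of the first 2 groups overlapped, and neutrophils took the lead without run 1, with cells weighted equally and with cells thinned to 2000 UMIs. The classical monocyte level was uneven: 1 cell held 65 of the 244 UMIs, and 17.2% of the cells held any, against 0.683% of the more deeply sampled Dppa5a-high cells (median 11446 against 6032 UMIs). Herc6, the ligase that attaches Isg15 in mice (chr6:57581000-57664632), had 44.1 CPM in endothelium (36.1 to 53.3) and 39.6 in AT1 cells (27.7 to 54.8). It had 23.8 in nonclassical monocytes, 23.2 in T cells, 22.9 in classical monocytes, 21.1 in cells outside all gates, 18.7 in interstitial macrophages, 15.3 in alveolar macrophages, 11.9 in AT2 cells, 4.04 in neutrophils and 1.94 in Dppa5a-high cells. Isg15 and its ligase therefore peaked in different groups, and neutrophils, second for Isg15, held little Herc6.

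The Ifit proteins bind viral RNA and block its translation, and their 4 genes were low in every group. Ifit2 (chr19:34550694-34576419) led in AT1 cells with 31.9 CPM (21.4 to 45.8; 13.4 to 53.0 over 3 runs), 7.78-fold (5.13 to 11.4) above all other cells. It had 10.4 in interstitial macrophages, 6.93 in classical monocytes, 6.18 in endothelium, 5.87 in nonclassical monocytes, 5.57 in T cells, 5.09 in AT2 cells, 3.23 in neutrophils, 3.16 in cells outside all gates, 0.116 in alveolar macrophages and 0 in Dppa5a-high cells. The AT1 UMIs were spread over 22 of 118 cells with at most 3 in any, whereas 1 interstitial macrophage held 23 of that group's 42. Ifit3 (chr19:34583531-34588731) also led in AT1 cells, with 20.9 CPM (12.6 to 32.6; 0 to 37.9 over 3 runs) from 19 UMIs and a fold of 6.77-fold (4.00 to 10.8). It had 6.72 in classical monocytes, 6.29 in nonclassical monocytes, 5.92 in interstitial macrophages, 5.65 in neutrophils, 2.72 in cells outside all gates, 1.98 in T cells, 1.24 in endothelium, 0.242 in Dppa5a-high cells, 0.196 in AT2 cells and 0 in alveolar macrophages. Its copy Ifit3b had 4.40 CPM in AT1 cells (1.20 to 11.3) from 4 UMIs, 4.29-fold (1.14 to 11.4), an interval that overlaps those of other groups. The log2 fold of Ifit3 in AT1 cells went from 2.76 to 2.16 without run 1, and that of Ifit3b from 2.10 to 1.10 without run 6, where classical monocytes led. Ifit1 did not follow: AT1 cells held 0 UMIs, which allows up to 3.30 CPM, and neutrophils led with 7.26 (4.31 to 11.5), beside 7.19 in T cells. The AT1 group was small and drew 55 of its cells from run 6 and 41 from run 1, and the part of its T cell and Dppa5a-type transcripts in these levels was not tested.

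The oligoadenylate synthetases, or OAS proteins, sense double-stranded RNA, and those with enzyme activity make a messenger that switches on RNase L. All 5 genes of the family on the list had their highest level in neutrophils or classical monocytes. Oasl2 (chr5:114896936-114912234) had 61.3 CPM in neutrophils (52.0 to 71.9; 17.9 to 149 over 5 runs). It had 47.7 in classical monocytes, 45.3 in endothelium, 28.9 in nonclassical monocytes, 23.2 in interstitial macrophages, 13.4 in cells outside all gates, 8.80 in AT1 cells, 3.77 in T cells, 2.94 in AT2 cells, 1.28 in alveolar macrophages and 0.726 in Dppa5a-high cells. Neutrophils, classical monocytes and endothelium came first, with overlapping intervals for the first and second, and AT2, T cells, alveolar macrophages and Dppa5a-high cells held little. Oas1a (chr5:120896256-120907521) had 33.6 CPM in classical monocytes (28.6 to 39.2; 18.9 to 127 over 8 runs). It had 24.4 in interstitial macrophages, 23.0 in nonclassical monocytes, 13.6 in cells outside all gates, 11.3 in neutrophils, 7.42 in alveolar macrophages, 6.05 in Dppa5a-high cells, 3.71 in endothelium, 1.44 in T cells, 1.18 in AT2 cells and 0 in AT1 cells. The 0 of AT1 cells allows up to 3.30 CPM. Oas3 had 23.3 CPM in classical monocytes and 19.8 in neutrophils, Oas2 20.2 in neutrophils and 16.8 in classical monocytes, each pair with overlapping intervals. Oasl1, which restrains the production of Irf7 protein, reached 13.2 CPM in classical monocytes (10.2 to 16.9), 4.80-fold (3.56 to 6.41) above all other cells. The members of this family have close sequence relatives in the mouse, some of them outside the list, among which reads can be split.

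A single GTPase and the nucleic acid sensors came next. Ifi47, an immunity-related GTPase (chr11:49076587-49096974), was the only member that led in T cells, with 60.2 CPM (53.9 to 67.0; 31.2 to 72.1 over 7 runs), 5.54-fold (4.86 to 6.31) above all other cells. It had 23.3 in classical monocytes, 21.0 in endothelium, 14.1 in cells outside all gates, 12.8 in interstitial macrophages, 10.8 in nonclassical monocytes, 4.40 in AT1 cells, 3.83 in alveolar macrophages, 2.02 in neutrophils, 1.57 in AT2 cells and 0.968 in Dppa5a-high cells. No other group came near the T cell level. Ifi204, a DNA-binding protein of the PYHIN family (chr1:173747293-173766943), had 213 CPM in classical monocytes (199.9 to 226; 150.2 to 341 over 8 runs), 4.16-fold (3.88 to 4.46) above all other cells. It had 150.0 in nonclassical monocytes, 91.7 in interstitial macrophages, 66.2 in neutrophils, 43.5 in cells outside all gates, 12.99 in alveolar macrophages, 12.1 in AT1 cells, 7.41 in endothelium, 3.06 in T cells, 2.55 in AT2 cells and 1.69 in Dppa5a-high cells. Its relative Ifi203 (chr1:173920407-173942672) had 169 CPM in classical monocytes (157 to 181; 118 to 285 over 8 runs). It had 138 in T cells, 106 in interstitial macrophages, 76.4 in nonclassical monocytes, 74.2 in cells outside all gates, 22.7 in endothelium, 19.8 in AT1 cells, 12.1 in alveolar macrophages, 3.23 in neutrophils, 2.94 in AT2 cells and 1.45 in Dppa5a-high cells. The pair was alike in its high monocyte and interstitial macrophage levels, but T cells held much Ifi203 and little Ifi204, and neutrophils the reverse. Ifi203 overlaps Mndal on the same strand, and both belong to a cluster of similar genes, so their counts are uncertain.

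The remaining sensors differed in which cells led. Zbp1, a sensor of Z-form nucleic acids, had 93.3 CPM in classical monocytes (84.8 to 102), 79.3 in nonclassical monocytes and 1.65 in endothelium, its lowest group. Ddx60, a helicase, led in neutrophils with 61.3 CPM (52.0 to 71.9; 35.8 to 198 over 5 runs), 4.08-fold (3.42 to 4.84) above all other cells. Without run 1, which held 240 of the 387 neutrophils, its log2 fold went from 2.03 to 2.76. Ifih1, the sensor of long double-stranded RNA also called Mda5, was spread more evenly, with 44.3 CPM in classical monocytes (38.5 to 50.7) and between 13.7 and 36.6 in AT2, AT1, endothelial, macrophage, nonclassical monocyte and neutrophil groups. T cells (7.55) and Dppa5a-high cells (0.968) were lower.

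Of the membrane proteins, Ifitm3, which blocks the fusion of enveloped viruses in endosomes (chr7:141009586-141010770), had the highest level of any member, with 2524 CPM in classical monocytes (2479 to 2569; 1668 to 5234 over 8 runs). It had 2190.1 in nonclassical monocytes, 792 in endothelium, 685 in neutrophils, 537 in cells outside all gates, 389.9 in interstitial macrophages, 363 in Dppa5a-high cells, 145 in AT1 cells, 75.3 in T cells, 69.5 in AT2 cells and 57.2 in alveolar macrophages. Of classical monocytes, 98.2% held a UMI of it, against 7.59% of alveolar macrophages, which had the greater depth. Bst2, or tetherin, which holds budding virions at the cell surface (chr8:71534255-71537456), had 230.3 CPM in endothelium (212 to 250.2; 41.1 to 418 over 7 runs). It had 166 in Dppa5a-high cells, 156 in interstitial macrophages, 135 in classical monocytes, 97.5 in cells outside all gates, 94.2 in nonclassical monocytes, 72.6 in AT1 cells, 67.9 in T cells, 58.8 in alveolar macrophages, 43.2 in neutrophils and 27.0 in AT2 cells. Its highest and lowest groups lay closer together than those of Ifitm3 and Ifi27l2a, and Dppa5a-high cells, low for most of the list, came second. These cells also held 363 CPM of Ifitm3, 45.7 of Stat2, 46.5 of Xaf1 and 17.4 of Irf9, against 0.484 of Isg15, 2.42 of Ifi27l2a and 0.242 of Rtp4. For Stat2, 1 cell held 42 of the 189 UMIs, and for Irf9, 1 cell held 16 of the 72.

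The enzymes acting on nucleotides and RNA were low. Cmpk2, a mitochondrial nucleotide kinase (chr12:26469204-26479837), had 22.3 CPM in classical monocytes (18.2 to 26.9; 12.6 to 38.4 over 8 runs), 4.58-fold (3.65 to 5.71) above all other cells. It had 14.9 in neutrophils, 10.4 in nonclassical monocytes, 8.24 in endothelium, 4.40 in AT1 cells, 4.24 in cells outside all gates, 3.45 in interstitial macrophages, 2.55 in AT2 cells, 2.52 in T cells, 0.968 in Dppa5a-high cells and 0.580 in alveolar macrophages. Isg20, an exonuclease that degrades single-stranded RNA (chr7:78913424-78920396), stayed below the minimum of 20 CPM, with 15.7 in neutrophils (11.2 to 21.5). It had 12.7 in nonclassical monocytes, 12.4 in T cells, 12.0 in classical monocytes, 10.4 in AT2 cells, 7.70 in AT1 cells, 4.87 in cells outside all gates, 3.21 in interstitial macrophages, 2.47 in endothelium, 0.580 in alveolar macrophages and 0.242 in Dppa5a-high cells. AT2 cells, near the bottom for most members, held as much Isg20 as T cells and classical monocytes within the counting intervals (7.78 to 13.6 in AT2 cells and 9.07 to 15.5 in classical monocytes). Rsad2, or viperin, which makes a nucleotide that stops viral RNA synthesis, is the neighbour of Cmpk2 on chromosome 12 and had 14.1 CPM in interstitial macrophages. There, 1 cell held 37 of the 57 UMIs. Without run 1 the log2 fold of that group went from 1.62 to 0.49 and neutrophils, at 10.9 CPM in all runs, came first.

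The other members had no shared role. Ifi27l2a, a small protein of the Ifi27 family (chr12:103442167-103443680), had 1449 CPM in classical monocytes (1415 to 1483; 984 to 4091 over 8 runs), 4.21-fold (4.10 to 4.32) above all other cells. It had 933 in nonclassical monocytes, 356 in interstitial macrophages, 341 in cells outside all gates, 229 in T cells, 193 in neutrophils, 102 in alveolar macrophages, 67.1 in AT1 cells, 49.4 in endothelium, 32.3 in AT2 cells and 2.42 in Dppa5a-high cells. Monocytes stood far above Dppa5a-high cells, which held almost none. Trim30a, a tripartite-motif protein (chr7:104409025-104465193), had 148 CPM in classical monocytes (138 to 159.9; 92.0 to 219 over 8 runs). It had 108 in nonclassical monocytes, 85.2 in neutrophils, 81.1 in interstitial macrophages, 74.5 in cells outside all gates, 52.8 in T cells, 47.8 in endothelium, 46.5 in alveolar macrophages, 34.1 in AT1 cells, 6.46 in AT2 cells and 1.94 in Dppa5a-high cells. AT2 and Dppa5a-high cells stood apart at the low end, and alveolar macrophages, low for most members, held as much as endothelium within the counting intervals.

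Ifi44, scarce in all, had 35 of its 60 UMIs in the 601 endothelial cells. Its level there was 14.4 CPM (10.0 to 20.1; 0 to 21.5 over 7 runs), 43.0-fold (25.0 to 75.0) above all other cells, and AT1 cells followed with 6.60 (2.42 to 14.4). Without run 6 the log2 fold of Ifi44 in endothelium went from 5.43 to 6.59. Classical monocytes, first for so many members, held 0 Ifi44 UMIs, which allows up to 0.630 CPM. Ifi35 and Irf9 varied least over the gate groups, Ifi35 from 10.4 CPM in Dppa5a-high cells to 47.8 in endothelium and 46.0 in classical monocytes. Parp14, an ADP-ribosyltransferase, had 59.7 CPM in classical monocytes, 55.2 in endothelium and 54.1 in nonclassical monocytes, and the intervals of the first 2 overlapped. Xaf1, which counters the apoptosis inhibitor Xiap, had 61.3 CPM in classical monocytes and 7.64 in AT2 cells. Rtp4, a receptor transporter, had 41.2 in neutrophils (33.6 to 49.97) and 35.7 in classical monocytes (30.5 to 41.5). Of the 33 members, 12 overlap another annotated gene, and since the handling of strand is not given in the sources used here, reads of such neighbours cannot be told apart.

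Whether members were found together in single cells was read from cells thinned to 2000 UMIs each, so that all were compared at the same depth. Shallower cells, 1423 of 11806, were left out. Over the 30 members without Ifitm3, Ifi27l2a and Bst2, at least 5 were detected in 74 of 541 classical monocytes (13.7%, 10.9 to 16.9; 7.41 to 42.5% in the 6 runs with at least 20 such cells). In nonclassical monocytes the share was 6.49% (5.43 to 7.68), in neutrophils 5.28%, in interstitial macrophages 3.65%, in endothelium 2.63%, in AT1 cells 1.79% and in T cells 1.37%. It was 0.210% in alveolar macrophages, 0.157% in AT2 cells and 0 of 282 Dppa5a-high cells, which allows a share of up to 1.06%. The intervals of neutrophils (3.21 to 8.12) and nonclassical monocytes overlapped. Without thinning the share was 54.2% in classical monocytes, 25.9% in nonclassical monocytes and 2.05% in Dppa5a-high cells. There was no gap at the threshold: 335 cells had 4 members and 168 had 5.

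**Figure D3:**
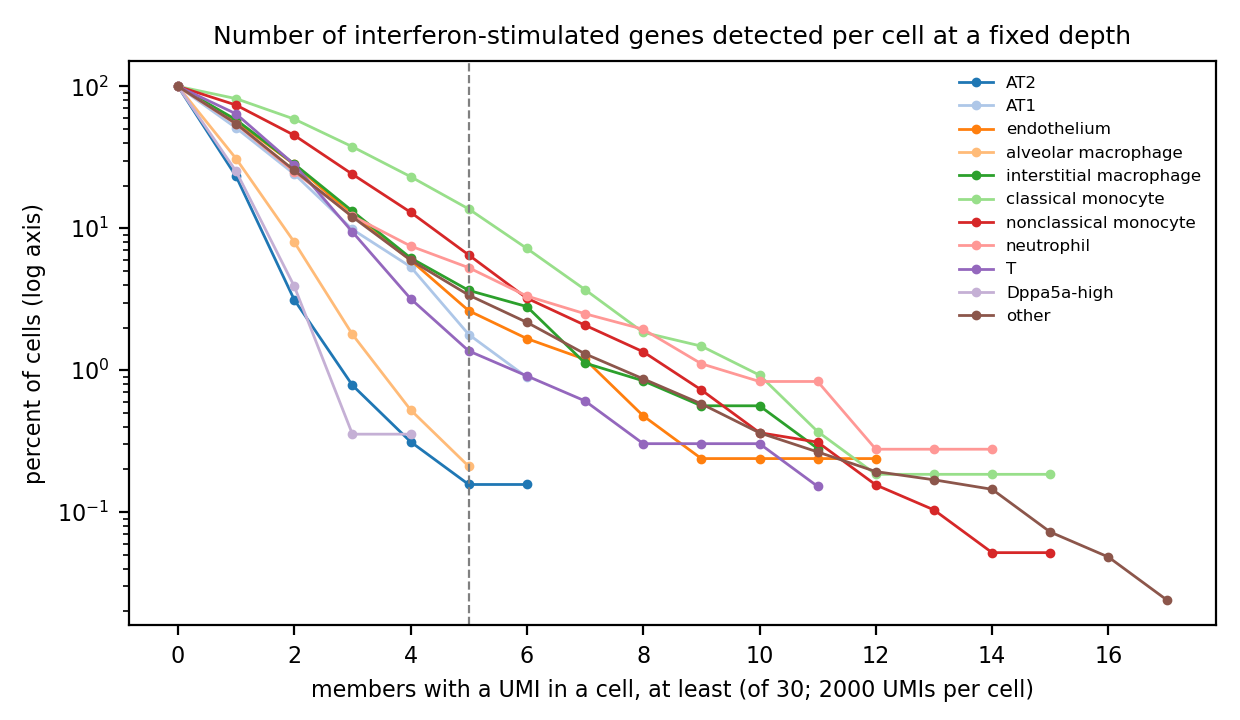
Percent of cells (vertical log axis) with at least the number of members given on the horizontal axis, by gate group, after thinning each cell to 2000 UMIs. The dashed line marks 5 members, where classical monocytes stand at 13.7% and alveolar macrophages at 0.210%; each line ends where no cell of its group had more.

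The members differed in how much more often they were detected in cells that held others. For each gene, cells with at least 5 of the other members were compared with cells with fewer, all at 2000 UMIs. Rsad2 was detected in 10.1% of the former (7.28 to 13.6) and 0.340% of the latter, a ratio of 29.7. The ratio was 27.7 for Ifit3b, 26.3 for Ifit1, 22.7 for Ifit3, 16.9 for Oasl1, 13.1 for Ifit2, 12.1 for Oas3, 11.4 for Usp18, 10.5 for Oasl2 and 9.46 for Isg15. At the other end were Ifi35 with 2.18 (13.3% against 6.09%), Ifitm3 with 2.41, Bst2 with 2.46, Ifi27l2a with 2.57 and Irf9 with 2.99. The genes with high ratios were thus scarce outside such cells, and Ifitm3 and Bst2 were common outside them. A gene common in the other cells cannot reach a high ratio, and Ifitm3 was found in 34.9% of them. The order of the ratios therefore depends in part on level and does not rank how closely members kept together.

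These ratios pool cell groups that differ in level, so they were also taken within classical monocytes. There 28 of the 30 members were more often detected in cells with at least 5 others, all but Ifit3b and Ifi44. Of all 10751 genes with 20 CPM in a group, 40.2% were more often detected in the cells with at least 5 members. Some members rest on few cells, such as Rsad2 and Usp18. Isg15 was found in 14.7% of 68 such cells and 4.65% of the other 473, Oasl1 in 12.2% of 74 and 1.07% of 467, and Rsad2 in 2.74% of 73 and 0.427% of 468. Usp18 was found in 1.37% of 73 and 0.855% of 468. Irf9, at 16.2% and 11.6%, again differed less. Within runs, over all groups, 23 of the 30 were more often detected beside 5 others in each of the 7 runs with at least 10 such cells, against 3.71% of all genes, and the exceptions were Ifit3b, Rsad2, Ifi44, Cmpk2, Ifi47, Ddx60 and Herc6.

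**Figure D4:**
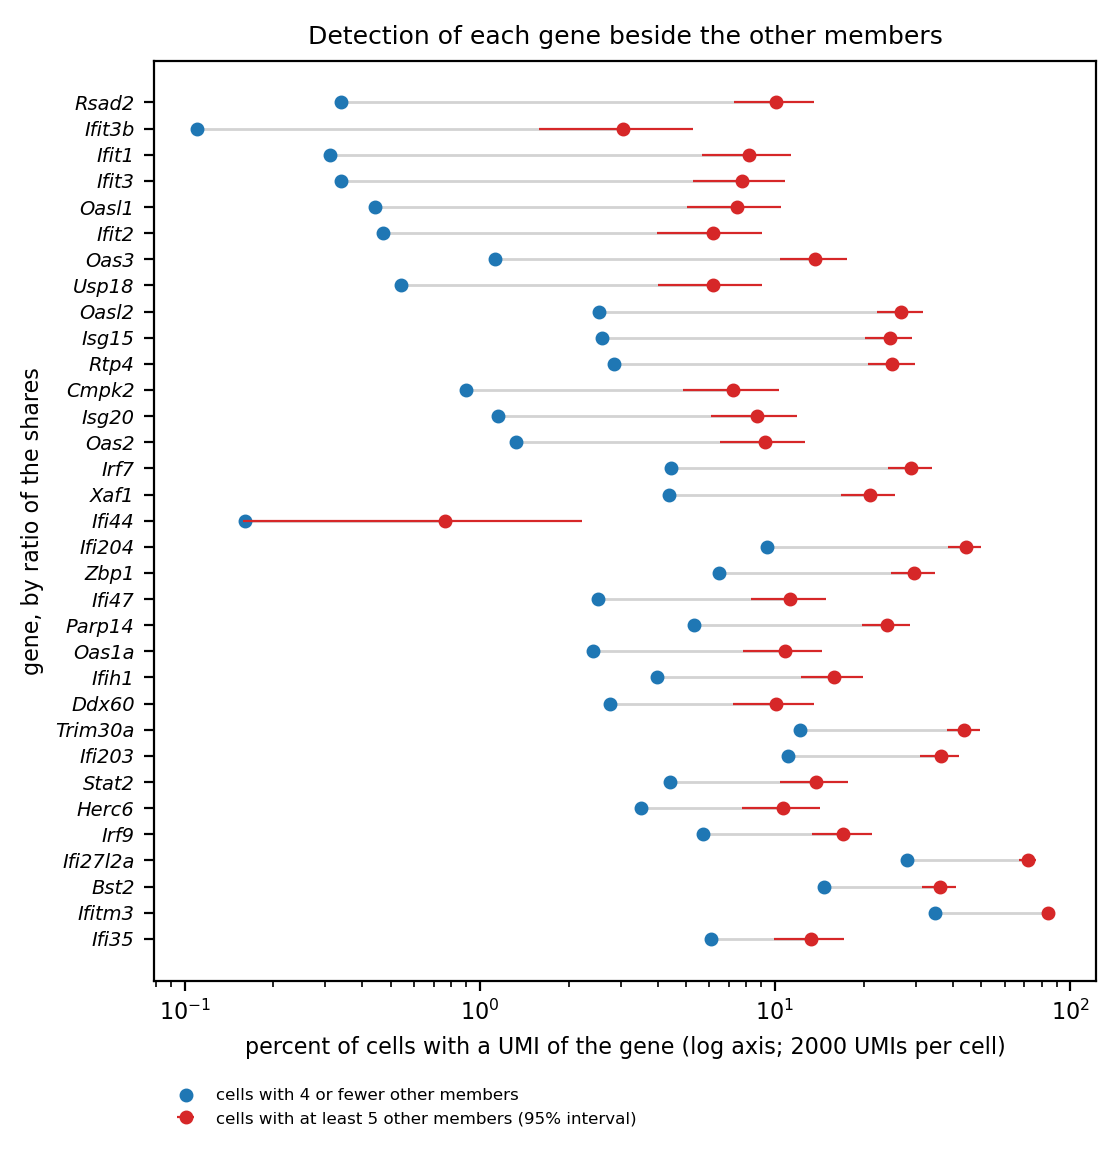
Percent of cells with a UMI of each member (horizontal log axis) in cells with at least 5 other members (red, with 95% intervals) and in cells with fewer (blue), all cells thinned to 2000 UMIs; genes are ordered by the ratio of the shares. The gap is widest for Rsad2 (10.1% and 0.340%) and narrowest for Ifi35; the red interval of Ifi44 reaches its blue point.

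Other genes of the pathway were read in the same cells and groups. Of 10 interferon ligands listed, Ifna1, Ifna2, Ifna4, Ifna5, Ifne, Ifnl2 and Ifnl3 had 0 UMIs among all 77020720, Ifnb1 had 3 and Ifnk 10. Ifng, the gamma interferon of lymphocytes, had 856, with 71.2 CPM in T cells (64.3 to 78.5) and 16.7 in cells outside all gates. Of 6 receptor genes, Ifngr1 was the most abundant, with 473 CPM in nonclassical monocytes, 394 in interstitial macrophages and 6.53 in Dppa5a-high cells, and Ifnar2, a chain of the type I receptor, came second, with 216 in interstitial macrophages. In classical monocytes 0 of the 6 receptor genes were 2-fold higher than elsewhere (2.25% of all genes) and 1, Ifnlr1, was 2-fold lower (29.9% of all genes, 0 of the 26 listed members), so these 6 counts lie near those of all genes. Ifnlr1, the receptor chain for type III interferon, was found in AT1 cells (22.0 CPM, 13.4 to 34.0), neutrophils (12.9) and AT2 cells (10.6). Dppa5a-high cells held the least receptor transcript, 70.2 CPM over the 6 genes, beside 941 in interstitial macrophages.

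Among 7 kinases and factors, 1 was 2-fold higher in classical monocytes (Irf5) and none was 2-fold lower. Irf1, a factor induced by interferon gamma, led in endothelium with 358 CPM (334 to 382), and Jak1, a kinase of all interferon receptors, in T cells with 329.8. Of 12 sensor and adaptor genes found, 9 reached 20 CPM, of which 1 was higher (Dhx58) and 1 lower (Tlr3) in classical monocytes. The highest levels were those of Tlr4, the receptor for lipopolysaccharide, with 124 CPM in neutrophils, and Tlr7, a receptor for single-stranded RNA, with 87.8 in nonclassical monocytes. Of 3 inhibitors outside the list, none differed 2-fold there, and Ptpn6 reached 284 CPM in nonclassical monocytes and Socs3 197 in endothelium. Of 7 interferon gamma targets that reached 20 CPM, 0 were 2-fold higher in classical monocytes (2.25% of all genes) and 3 were lower (29.9%). In endothelium 4 of the 7 were higher, Gbp3, Gbp4, Irgm1 and Iigp1, against 19.1% of all genes. The minimum of 20 CPM can be met in endothelium itself, as by Iigp1, which was 2-fold higher in no other group. The count is therefore no separate support for a high level in endothelium. Iigp1, an immunity-related GTPase, had 175 CPM in endothelium (159 to 193), 78.4-fold (65.4 to 94.3) above all other cells, and Irgm1, a regulator of that family, 45.3. Relatives of Ifitm3 split as well, with Ifitm1 at 1687 CPM in neutrophils and Ifitm2 at 968 in classical monocytes.

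**Figure D5:**
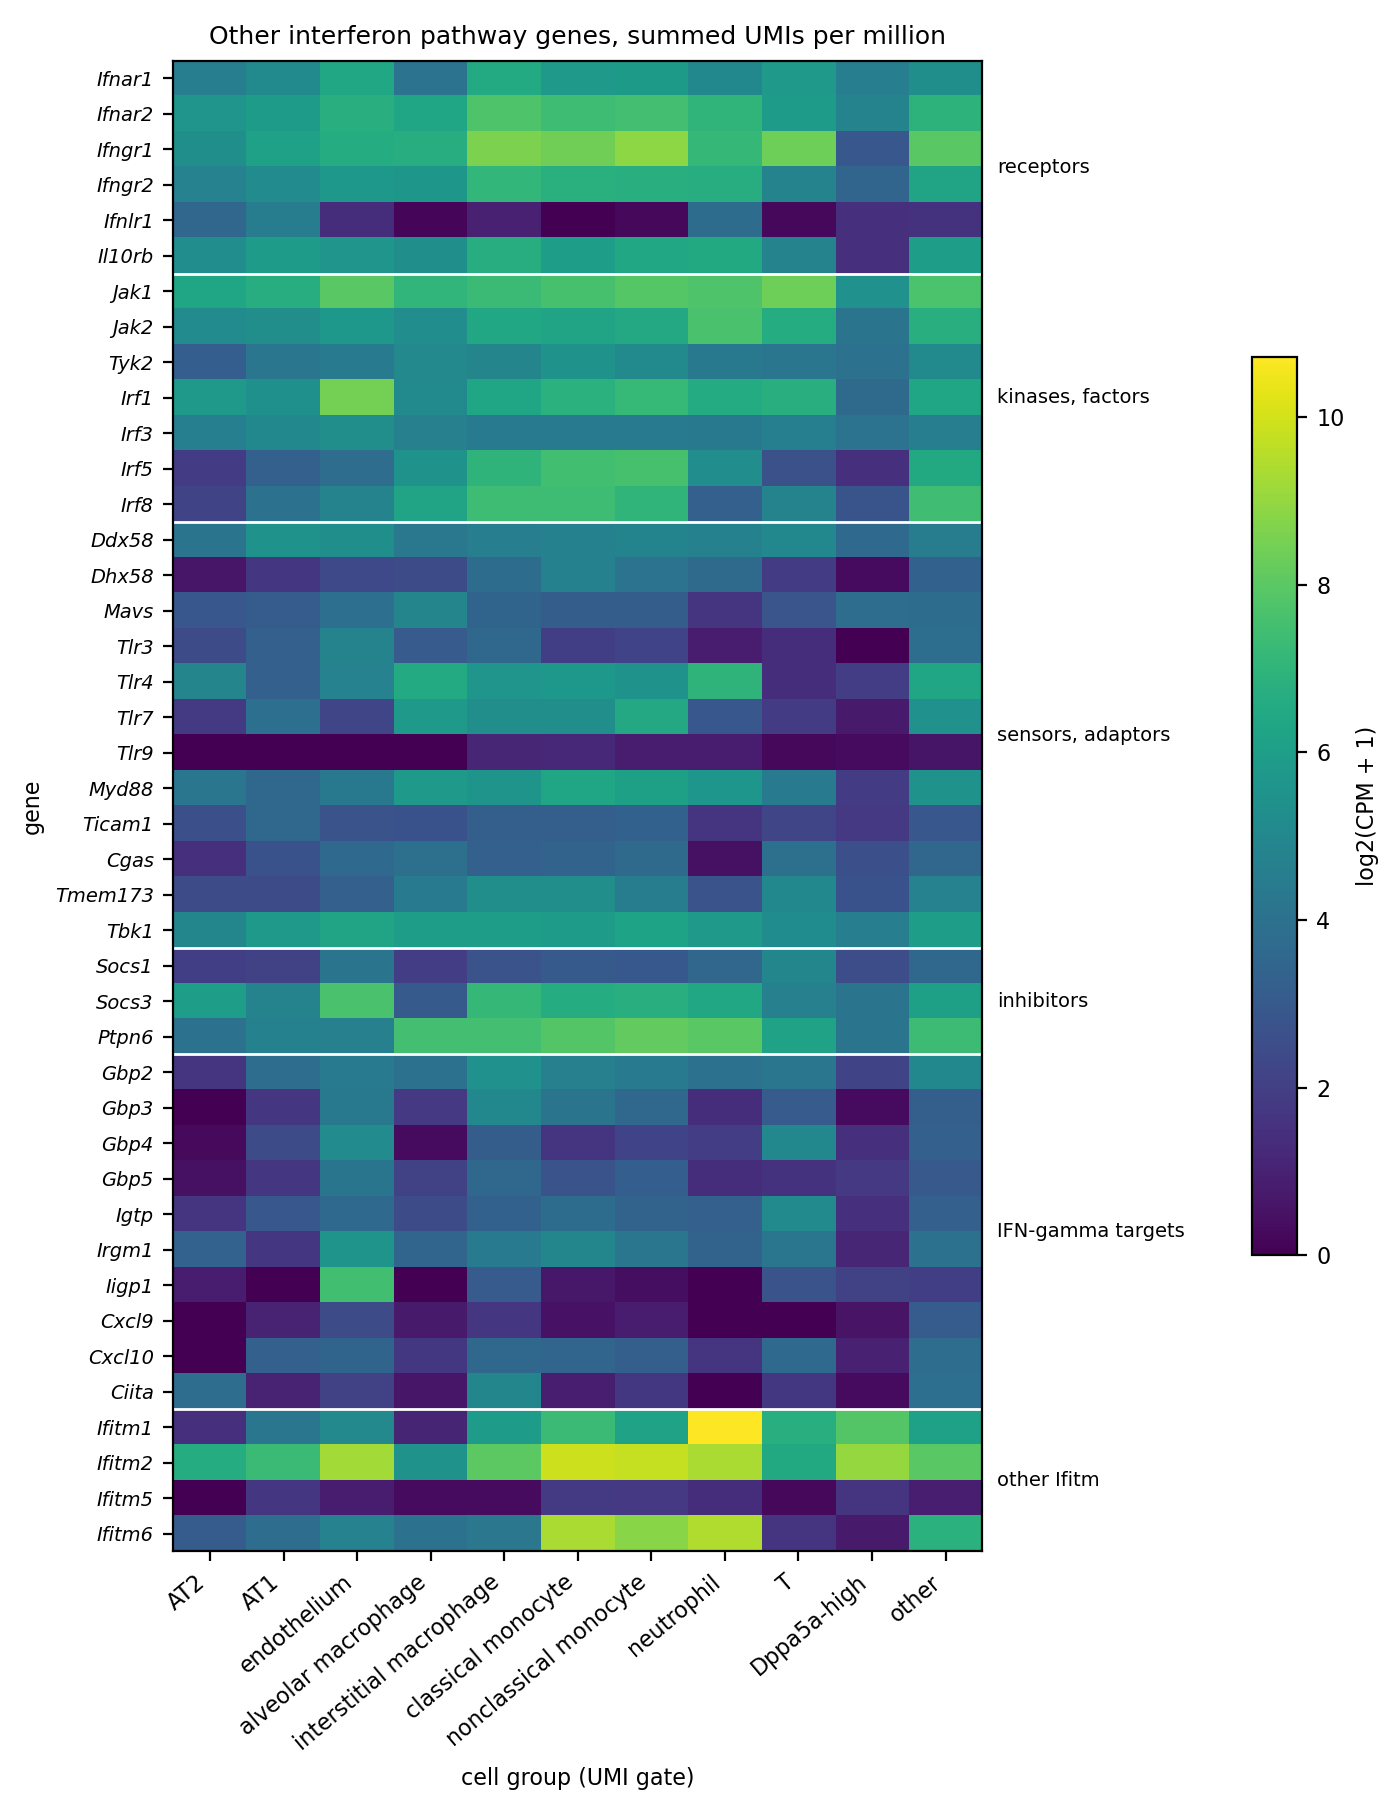
Levels of other interferon pathway genes (rows, by kind) in the 10 gate groups and in cells outside all gates (columns), as log2(CPM + 1) by colour. Iigp1 is bright in endothelium alone, Ifitm1 is brightest in neutrophils, and the Dppa5a-high column is dark for most receptors.

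Within a gate group, cells with at least 5 members were set against cells with fewer, on genes that had no part in choosing them. The summed level of the 10 interferon gamma targets was 289 CPM against 72.4 in classical monocytes, 219.6 against 73.7 in nonclassical monocytes, and 879.6 against 98.5 in cells outside all gates. Gbp2, a guanylate-binding protein, was 5.90-fold (4.02 to 8.65) higher in classical monocytes. The Gbp2 UMIs lay in 14 of the 74 cells. Summed receptor levels were 781 and 726 CPM in classical monocytes, 875 and 903 in nonclassical monocytes, and 711 and 543 outside all gates. In classical monocytes, fold intervals lay above 1 for 6 of 10 gamma targets and 4 of 12 sensors and adaptors. They did so for 3 of 7 kinases and factors, Irf1 among them (2.18-fold, 1.79 to 2.64). No interval of these lists or of the receptors lay below 1. The other Ifitm genes summed to 2035 against 1739 CPM in classical monocytes and to 1267 against 406 outside all gates. Outside all gates a few cells carried the chemokines: the 106 UMIs of Cxcl9 lay in 7 of the 140 cells with at least 5 members (167 CPM over all 140, against 3.59 in the other 3999). The 132 UMIs of Cxcl10 lay in 18 of the 140 (208 against 8.66 CPM). In classical monocytes Cxcl9 had 0 UMIs in the 74 cells, and Cxcl10 was at 24.3 against 8.07 CPM. Median depth was 7237 and 6054 UMIs in the classical monocyte sets and 3367 and 4430.0 in those outside all gates, and its part in these differences was not tested. Outside all gates the sets also differ in cell type: summed natural killer cell markers were at 37.8 against 287 CPM, B cell markers at 26.8 against 146 and migratory dendritic cell markers at 6.31 against 83.7. Markers of conventional dendritic cells were at 91.4 against 45.9 and of plasmacytoid dendritic cells at 23.6 against 10.2, a part not tested either. The conventional sum rests on few of the 140 cells: Flt3 had 13 UMIs in 8, Xcr1 8 in 3, Clec9a 22 in 6 and Cd209a 15 in 4. The fold interval lay above 1 for 2 of these 4 genes. The plasmacytoid sum rests on few cells too: Siglech had 7 UMIs in 1 of the 140 cells and Ccr9 had 8 in 3. The other marker, Cox6a2, went the other way, with 0 UMIs against 5.07 CPM.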

How the data were processed

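Single cells of 8 lung libraries were profiled with the 10x Genomics Chromium 3' chemistry, per the labels' protocols. The authors deposited 1 table of whole-number UMI counts for 32285 genes and 11806 cells, made with Cell Ranger 1.3.1 on build mm10 per the submitters' processing notes. The sources used here do not give the authors' cell filters; the cells of the table held at least 800 genes and at most 9.99% mitochondrial UMIs. The columns carry barcodes with a merge suffix that matches no library label, so the planned edgeR test of Hyperoxia against Air could not be run.

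Gates were applied in a fixed order: Sftpc at 3% or more of UMIs, Rtkn2 at 3 UMIs, Cdh5 plus Cldn5 at 2, Ear1 plus Marco at 2, C1qa plus C1qb at 5, F13a1 at 2 with Ly6c2 at 1, Ace plus Adgre4 at 2, S100a8 plus S100a9 at 2% with Csf3r at 1, Cd3e plus Trac at 2 and Dppa5a at 10. CPM were taken from counts summed over a group, with exact Poisson intervals, shares had exact binomial (Clopper-Pearson) intervals, and folds over all other cells had exact conditional binomial intervals. Genes at 20 CPM or more in their leading group served as the background. Levels in all groups are given for the 2 highest members of each role, and members at 4-fold or more are named with their fold. Python 3.11.15, numpy 2.4.6, scipy 1.17.1, pandas 2.3.3 and matplotlib 3.10.9 were used, and the steps were tested on simulated data. Gene positions come from the GENCODE annotation of GRCm38 and promoters from RefSeq.

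The members, gates and lists were chosen with earlier results of these data known. Chosen after values were seen were the minimum of 10 cells for a run's value, the comparison of cells with 5 or more members with other cells, the co-detection of single members and the sequences shown. Alternatives changed the gates, weights, depth, runs, minimum level, fold, number of members and motif. A gene of the list of kinases and factors is not reported here and was left out of it.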

Additional observations from a re-analysis of the deposited data

How the results depend on the processing

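The summed level of the 33 members in classical monocytes was 5485 CPM. It was 5799 in cells that passed exactly 1 gate, 5564 with gate thresholds doubled, 6170 with cells weighted equally, 5827 with runs weighted equally, 6131 after thinning to 2000 UMIs, 6051 without the 5% of cells with most UMIs and 1378 without Ifitm3, Ifi27l2a and Bst2. Leaving out 1 run at a time gave 5283 to 5934. The count of members at least 2-fold higher there, 17 of 26, was 19 at a minimum of 10 CPM, 20 with no minimum and 3 at 4-fold. No share of all genes is given for these 3 settings, so their counts cannot be set against a background. The share of classical monocytes with at least 5 members, 13.7%, was 33.6% after thinning to 4000 UMIs and 37.5% for at least 3 members, and 11.4 to 18.2% with 1 run left out. Members with the longer ISRE numbered 8, against 14 with the core. No member's fold changed direction in its leading group, and 23 of 33 kept their leading group under all 14 settings; Herc6, Ifi35, Ifih1, Ifit1, Ifit3b, Isg15, Oas3, Parp14, Rsad2 and Usp18 did not. No paired analysis was possible because the columns could not be tied to libraries. For the same reason the planned comparison of Hyperoxia with Air was not run, nor were its alternatives with DESeq2, without single replicates or without a filter.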

Other observations

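Cells with at least 5 of the 30 members at 2000 UMIs were found in every run, at 3.11% in run 1, 12.7% in run 2, 2.85% in run 3, 4.66% in run 4, 3.48% in run 5, 5.27% in run 6, 3.10% in run 7 and 0.342% in run 8. These shares pool all groups, whose mix differed between runs. Nonclassical monocytes were 101 of 282 cells in run 2 and 240 of 1570 in run 1. The share of run 8 is 1 cell of 292. At least 10 members were found in 35 cells, and the most in 1 cell was 17. Of the 30 members, those with an ISRE core in the promoter window had a median ratio of 6.95 (n = 12). Their range was 3.13 to 29.7. The ratio was that of detection in cells with at least 5 other members to detection in other cells. Members without a core had a median of 5.64 (n = 12), with a range of 2.18 to 16.9. Left out were Ifitm3 and Bst2, which hold the core and had lower ratios of 2.41 and 2.46. Leaving them out raised the first median, so the 2 medians do not rank the sets.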
